A study of Mus musculus with 12 samples.

Results

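The genes of DNA replication and S phase entry were read in whole mouse liver on 12 Affymetrix expression arrays, which measure total RNA with probe sets of short oligonucleotides. The set was a list of 45 genes named by function, matched to the arrays by gene symbol. Of these, 44 had a probe set among the 18193 genes tested, and Chaf1a had none in the annotation used. Where a gene had several probe sets, the brightest over the 12 arrays stood for it.

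All groups were male Balb/c mice obtained at 8 weeks of age and weighing about 20 g, and dosing began after 1 week of acclimatization. The livers were therefore taken from older mice. NC mice received olive oil and the control lentivirus Lenti-NC, NC+CCl4 mice received carbon tetrachloride (CCl4), a liver toxin used to cause fibrosis, and the same virus, shLFAR1 mice received oil and Lenti-shLFAR1, and shLFAR1+CCl4 mice received CCl4 and Lenti-shLFAR1. Lenti-shLFAR1 carries a short hairpin RNA against lnc-LFAR1, which is a liver-enriched long noncoding RNA. CCl4 was given intraperitoneally at 5% (v/v) in oil, 0.3 ml/kg body weight, 3 times per week, and the virus entered by the tail vein when dosing had run for 2 weeks and went on for 4 weeks more. Each group held 10 mice, of which 3 liver samples labelled as biological replicates were on arrays. The hairpin is driven by an H1 promoter, which is not restricted to 1 cell type, and the knockdown itself could not be checked here, since lnc-LFAR1 is not among the probe set names used.

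A cell copies its DNA once per division. In G1 the origin recognition complex with Cdc6 and Cdt1 loads the MCM2-7 helicase onto origins, and at the G1/S boundary Cdc45, the GINS complex and Mcm10 help turn the loaded helicase into an active fork. Primase and polymerase alpha start the new strands, polymerases delta and epsilon extend them on the Pcna clamp, Fen1 and Lig1 join Okazaki fragments, and ribonucleotide reductase supplies deoxynucleotides. E2F factors drive many of these genes at S phase entry. Hepatocytes of the adult liver are mostly quiescent but can re-enter the cycle after injury.

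Promoters of 4 of the genes are shown because they stood highest in the helicase, licensing, clamp and nucleotide roles in NC+CCl4 against NC, and because E2F sites are the textbook link between these genes. The sequences are from RefSeq on GRCm38.p6, 250 bases before to 50 after the gene start, 5′ to 3′ on the strand of the gene. Capitals mark the E2F core TTNNCGC and the CCAAT box, on either strand. The regions are chr1:128359656-128359955 on the minus strand for Mcm6, chr8:122567765-122568064 on the plus strand for Cdt1, chr16:23127681-23127980 on the minus strand for Rfc4 and chr12:24708004-24708303 on the plus strand for Rrm2.
Mcm6: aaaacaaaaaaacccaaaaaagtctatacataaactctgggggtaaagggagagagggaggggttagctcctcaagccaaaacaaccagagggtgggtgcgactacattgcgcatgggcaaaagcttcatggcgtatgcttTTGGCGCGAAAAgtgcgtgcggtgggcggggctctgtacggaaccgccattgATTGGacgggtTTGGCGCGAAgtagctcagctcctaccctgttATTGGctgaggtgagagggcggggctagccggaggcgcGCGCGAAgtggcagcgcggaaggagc
Cdt1: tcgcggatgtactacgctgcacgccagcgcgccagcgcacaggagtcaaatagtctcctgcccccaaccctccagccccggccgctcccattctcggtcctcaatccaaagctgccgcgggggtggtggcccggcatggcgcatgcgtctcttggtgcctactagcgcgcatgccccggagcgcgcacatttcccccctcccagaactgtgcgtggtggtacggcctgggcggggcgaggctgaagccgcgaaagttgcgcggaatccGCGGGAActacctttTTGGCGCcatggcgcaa
Rfc4: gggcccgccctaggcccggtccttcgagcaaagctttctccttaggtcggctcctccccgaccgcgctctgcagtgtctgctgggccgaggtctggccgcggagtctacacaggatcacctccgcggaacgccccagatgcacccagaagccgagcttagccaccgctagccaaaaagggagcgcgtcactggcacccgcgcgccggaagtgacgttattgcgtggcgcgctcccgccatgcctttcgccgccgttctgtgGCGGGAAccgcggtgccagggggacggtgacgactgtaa
Rrm2: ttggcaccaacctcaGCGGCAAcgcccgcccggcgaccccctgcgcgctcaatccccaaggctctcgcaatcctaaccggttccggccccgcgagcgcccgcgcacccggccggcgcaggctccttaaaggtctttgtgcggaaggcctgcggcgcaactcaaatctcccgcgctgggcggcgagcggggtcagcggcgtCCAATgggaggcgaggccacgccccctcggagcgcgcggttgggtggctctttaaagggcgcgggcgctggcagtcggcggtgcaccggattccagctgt

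Mcm6 held 6 overlapping or separate matches to the E2F core, at -109, -106, -104, -46, -43 and 25 from the start, and CCAAT boxes at -57 and -14. Cdt1 held 2 matches to the core, at 19 and 34, Rfc4 held 1 at 12, and Rrm2 held 1 at -235 with a CCAAT box at -50. Longer E2F motifs of 8 bases (TTTCCCGC, TTTGGCGC, TTTCGCGC or TTTGCCGC, each of which contains the core) were found at 3 places in Mcm6 and 1 in Cdt1 and had no match in these windows of Rfc4 and Rrm2. A promoter was at hand for 36 of the replication genes and for 14453 genes of the array. Where a gene had several listed promoters, only the first was read. An 8-base E2F motif was present in 11 of the 36 promoters, or 30.6%, and in 3.38% of all 14453. The core was present in 69.4% against 28.2%, CCAAT in 58.3% against 38.2%, and the GC box GGGCGG in 72.2% against 54% of all promoters. These shares describe letters in a window and not binding.

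In livers given CCl4 with the control virus, 12 of the 44 replication genes rose against NC and 1 fell. The genes that rose were Mcm4, Mcm5, Mcm6, Gins2, Pcna, Rfc2, Rpa1, Rpa2, Lig1, Rrm1, Rrm2 and Dnmt1, with log2 changes from 0.54 for Rfc2 to 3.46 for Mcm6, and the gene that fell was Mcm10, by 1.69 on the log2 scale. The Mcm10 probe set used is bright in normal liver, and whether it reads Mcm10 or an overlapping transcript was not tested. Calls are those of limma at an adjusted p under 0.05 over all genes tested, of which 7.66% were called higher and 5.41% lower. The other 31 replication genes did not pass this test, although the log2 change of 40 of the 44 was above 0. The median log2 change of the 44 was 0.80, beside -0.05 over all genes, and the 3 NC+CCl4 arrays lay above all 3 NC arrays for 19 of them and below for 2, where 13.8% and 15.8% of all genes did so.

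The count of called genes rested on the choice of arrays. Without any 1 of the NC arrays the count of genes called higher was 1 (without replicate 1), 0 (without replicate 2) or 2 (without replicate 3), without NC+CCl4 replicate 1 it was 6, without NC+CCl4 replicate 3 it was 1, without NC+CCl4 replicate 2 it was 31, and without shLFAR1+CCl4 replicate 3 it was 18. In the same order of fits, 4.53%, 4.72%, 5.05%, 6.31%, 5.95%, 8.59% and 9.39% of all genes were called higher. Mcm10 was called lower in each of these 7 fits. The fit pooled the spread of all 4 groups, so an array outside a comparison also counted in its errors. Without shLFAR1+CCl4 replicate 3 the log2 change of Mcm6 in NC+CCl4 against NC stayed at 3.46, and its SE was 0.59 in place of 0.85. In bulk tissue more cells of a type in S phase and more RNA per cell cannot be told apart. The deposited values were normalized by a method not given in the sources used here. Mean log2 values over all probe sets ran from 5.10 to 5.11, so the levels are relative and not absolute.

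**Figure D1:**
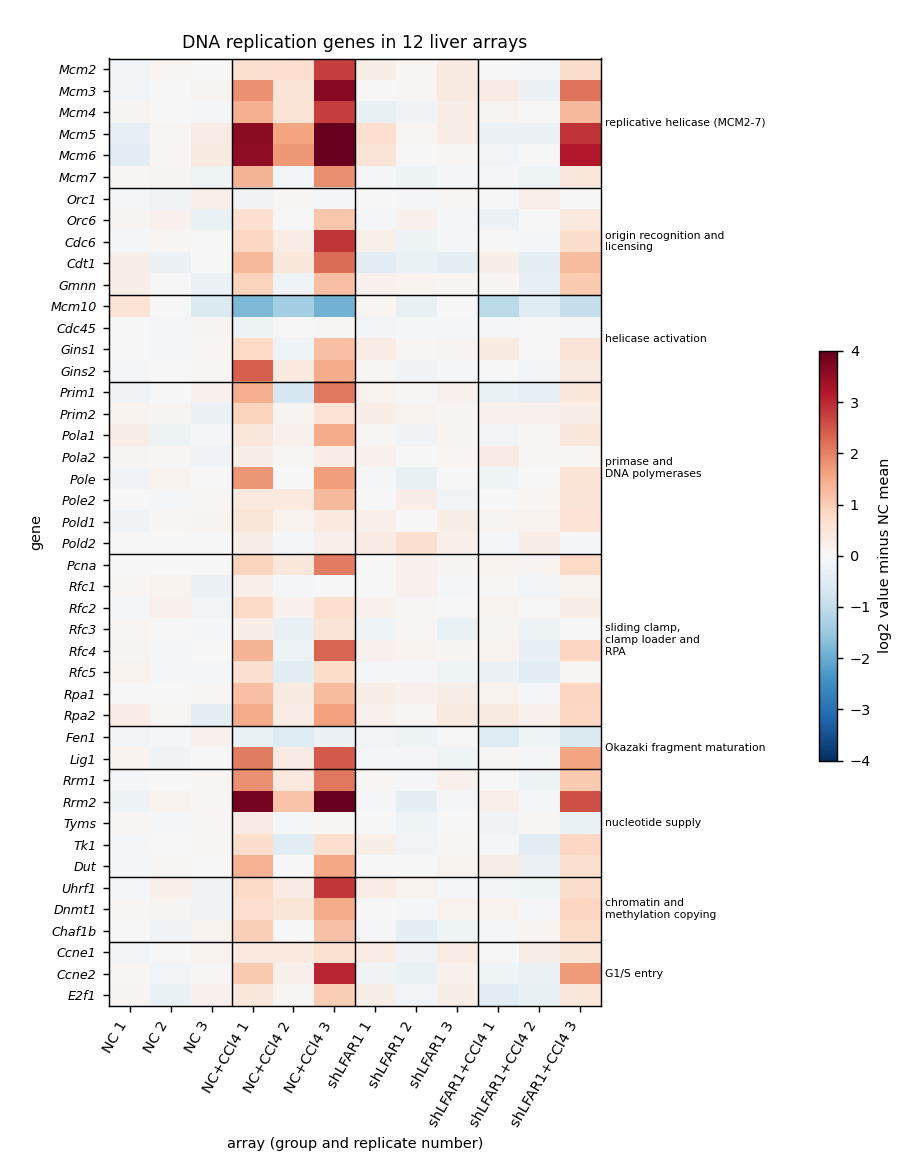
Log2 value minus the NC mean for 44 replication genes (rows, grouped by role) in each of the 12 arrays (columns, by group and replicate number). Red is above and blue below the NC mean, with the colour scale ending at 4 log2 units, and red is strongest in NC+CCl4 replicates 1 and 3 and in shLFAR1+CCl4 replicate 3, while Mcm10 runs blue in all CCl4 arrays.

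Among the 6 subunits of the MCM2-7 helicase, which unwinds DNA at the fork, Mcm4, Mcm5 and Mcm6 rose and Mcm2, Mcm3 and Mcm7 did not pass. Mcm6 read 3.75, 4.26 and 4.52 in NC, 7.74, 5.91 and 9.26 in NC+CCl4, 4.71, 4.19 and 4.21 in shLFAR1 and 4.06, 4.15 and 7.38 in shLFAR1+CCl4. All 3 NC+CCl4 arrays and the third shLFAR1+CCl4 array stood above every oil array, and the first and second shLFAR1+CCl4 arrays stood among the oil arrays. The log2 change of Mcm6 in NC+CCl4 against NC was 3.46 ± 0.85 (SE), with an adjusted p of 0.019 from limma. Mcm5 changed by 3.29 ± 0.81 and Mcm4 by 1.58 ± 0.46. Mcm7 moved least, with 8.12, 8.15 and 7.87 in NC, 9.41, 7.93 and 9.89 in NC+CCl4, 7.98, 7.85 and 7.97 in shLFAR1 and 7.96, 7.87 and 8.50 in shLFAR1+CCl4. Its second NC+CCl4 array lay inside the range of NC, and the log2 change was 1.03 ± 0.37 with an adjusted p of 0.086 by limma.

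Of the 5 genes of origin recognition and licensing none passed. Cdt1, the loading factor that is destroyed once S phase begins, read 6.57, 6.10 and 6.37 in NC, 7.66, 6.78 and 8.59 in NC+CCl4, 5.94, 6.08 and 5.96 in shLFAR1 and 6.57, 5.97 and 7.63 in shLFAR1+CCl4. The NC+CCl4 arrays did not overlap the NC arrays, but their own spread was wide and the log2 change of 1.33 ± 0.42 had an adjusted p of 0.058 in limma. Cdc6 also lay apart, with a log2 change of 1.32 ± 0.48. Orc1, the largest subunit of the origin recognition complex, read 6.15, 6.09 and 6.44 in NC and 6.09, 6.28 and 6.16 in NC+CCl4, with 6.23, 6.19 and 6.27 in shLFAR1 and 6.20, 6.43 and 6.24 in shLFAR1+CCl4. These 4 groups overlapped. Orc6 had a log2 change of 0.58 ± 0.24 and Gmnn, the inhibitor of Cdt1, 0.66 ± 0.35, both with overlapping arrays.

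Of the 4 helicase activation genes 1 rose and 1, on the Mcm10 probe set whose target is in doubt, fell. That probe set read 11.19, 10.65 and 10.05 in NC, 8.83, 9.26 and 8.72 in NC+CCl4, 10.70, 10.33 and 10.62 in shLFAR1 and 9.56, 10.15 and 9.66 in shLFAR1+CCl4. Both CCl4 groups lay below their oil group without overlap. The log2 change in NC+CCl4 against NC was -1.69 ± 0.25 (limma, adjusted p = 0.0018), the smallest adjusted p of any replication gene. Gins2, a subunit of the GINS complex, rose by 1.42 ± 0.35 and Gins1 had a log2 change of 0.62 ± 0.27 that did not pass. Cdc45 read 5.85, 5.77 and 5.96 in NC and 5.66, 5.89 and 5.91 in NC+CCl4, 5.76, 5.81 and 5.82 in shLFAR1 and 5.82, 5.84 and 5.78 in shLFAR1+CCl4, so its groups overlapped throughout on its brightest probe set. A dimmer Cdc45 probe set had a log2 change of 0.35 ± 0.25 in NC+CCl4 against NC. In shLFAR1+CCl4 against NC+CCl4 the dimmer set had -0.57 ± 0.25, and neither change passed.

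None of the 8 primase and polymerase genes passed, and all 8 had a log2 change above 0. Pole, the catalytic subunit of polymerase epsilon, read 4.61, 4.87 and 4.75 in NC, 6.50, 4.74 and 6.41 in NC+CCl4, 4.66, 4.46 and 4.71 in shLFAR1 and 4.57, 4.73 and 5.28 in shLFAR1+CCl4. NC+CCl4 replicates 1 and 3 were high while replicate 2 was inside the NC range, and the log2 change was 1.14 ± 0.36 (limma, adjusted p = 0.058). Pold2, an accessory subunit of polymerase delta, read 7.27, 7.31 and 7.30 in NC, 7.54, 7.26 and 7.48 in NC+CCl4, 7.61, 7.92 and 7.48 in shLFAR1 and 7.25, 7.55 and 7.22 in shLFAR1+CCl4. The NC and NC+CCl4 arrays of Pold2 overlapped. Log2 changes of the other 6 ran from 0.20 for Pola2 to 0.96 for Prim1, and only Pole2 and Pold1 had arrays that did not overlap.

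Of the 8 clamp, clamp loader and RPA genes, Pcna, Rfc2, Rpa1 and Rpa2 rose. Pcna, the sliding clamp, had a log2 change of 1.12 ± 0.31, Rpa1 and Rpa2, which coat single-stranded DNA, had 0.94 ± 0.24 and 1.14 ± 0.31, and the loader subunit Rfc2 had 0.54 ± 0.15. Rfc4 had the largest log2 change of the group, with 5.23, 5.04 and 5.10 in NC, 6.47, 4.93 and 7.44 in NC+CCl4, 5.29, 5.27 and 5.23 in shLFAR1 and 5.28, 4.79 and 5.98 in shLFAR1+CCl4. It did not pass (1.16 ± 0.47, limma, adjusted p = 0.13), and its second NC+CCl4 array lay below all 3 NC arrays. Rfc1, the large subunit of the loader, read 7.61, 7.66 and 7.31 in NC, 7.74, 7.44 and 7.50 in NC+CCl4, 7.54, 7.70 and 7.43 in shLFAR1 and 7.57, 7.43 and 7.66 in shLFAR1+CCl4, and its groups overlapped. Log2 changes were 0.16 for Rfc3 and 0.30 for Rfc5, and neither passed.

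Lig1, the ligase that seals Okazaki fragments, read 5.80, 5.51 and 5.64 in NC, 7.73, 5.99 and 8.10 in NC+CCl4, 5.60, 5.59 and 5.47 in shLFAR1 and 5.68, 5.56 and 7.23 in shLFAR1+CCl4. It rose in NC+CCl4 by 1.62 ± 0.49, close to the threshold (limma, adjusted p = 0.047). Fen1, the flap endonuclease, read 9.09, 9.15 and 9.39 in NC, 8.95, 8.68 and 8.98 in NC+CCl4, 9.11, 9.01 and 9.20 in shLFAR1 and 8.70, 9.04 and 8.63 in shLFAR1+CCl4 on its brightest probe set, where the NC+CCl4 arrays lay below the NC arrays. The log2 change there was -0.34 ± 0.13 and did not pass, and a second Fen1 probe set moved the other way, as given below with the probe sets.

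Of the 5 genes of nucleotide supply both ribonucleotide reductase genes rose. Rrm2, the subunit whose level follows S phase, read 4.09, 4.44 and 4.37 in NC, 8.13, 5.45 and 9.56 in NC+CCl4, 4.27, 3.95 and 4.22 in shLFAR1 and 4.52, 4.24 and 6.89 in shLFAR1+CCl4. All 3 NC+CCl4 arrays were above all NC arrays, with a log2 change of 3.41 ± 0.84 (limma, adjusted p = 0.019), and the log2 change of Rrm1 was 1.44 ± 0.39. Tyms, thymidylate synthase, read 2.93, 2.81 and 2.93 in NC, 3.21, 2.84 and 2.98 in NC+CCl4, 2.89, 2.73 and 2.88 in shLFAR1 and 2.75, 2.95 and 2.64 in shLFAR1+CCl4, near the bottom of the scale in every array. Dut, which removes dUTP, and Tk1, thymidine kinase, had log2 changes of 0.98 and 0.31 that did not pass.

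In the group that copies chromatin and methylation, Dnmt1, the maintenance methyltransferase, rose by 0.89 ± 0.26. Uhrf1, which brings Dnmt1 to hemimethylated DNA, read 3.83, 4.12 and 3.77 in NC, 4.67, 4.24 and 6.73 in NC+CCl4, 4.21, 4.04 and 3.87 in shLFAR1 and 3.79, 3.72 and 4.60 in shLFAR1+CCl4. The NC+CCl4 arrays lay above the NC arrays, yet the third was far above the other two and the log2 change of 1.31 ± 0.48 did not pass (limma, adjusted p = 0.097). Chaf1b, a subunit of the histone chaperone CAF-1, read 4.64, 4.52 and 4.78 in NC, 5.61, 4.66 and 5.81 in NC+CCl4, 4.57, 4.28 and 4.49 in shLFAR1 and 4.60, 4.74 and 5.37 in shLFAR1+CCl4. The shLFAR1+CCl4 arrays of Chaf1b lay above the shLFAR1 arrays, while those of NC and NC+CCl4 overlapped.

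The 3 genes of G1/S entry did not pass. Ccne2, a cyclin that activates Cdk2, read 2.96, 2.77 and 2.92 in NC, 3.93, 3.09 and 5.94 in NC+CCl4, 2.74, 2.62 and 3.07 in shLFAR1 and 2.71, 2.66 and 4.59 in shLFAR1+CCl4. The NC+CCl4 arrays did not overlap NC, with a log2 change of 1.43 ± 0.61. Ccne1, its paralog, read 5.36, 5.47 and 5.61 in NC, 5.88, 5.86 and 6.10 in NC+CCl4, 5.77, 5.33 and 5.77 in shLFAR1 and 5.45, 5.75 and 5.89 in shLFAR1+CCl4, again with the NC+CCl4 arrays above NC. The change was 0.46 ± 0.16 (limma, adjusted p = 0.072). E2f1, a factor that drives S phase genes, had a log2 change of 0.48 ± 0.25 with overlapping arrays.

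**Figure D2:**
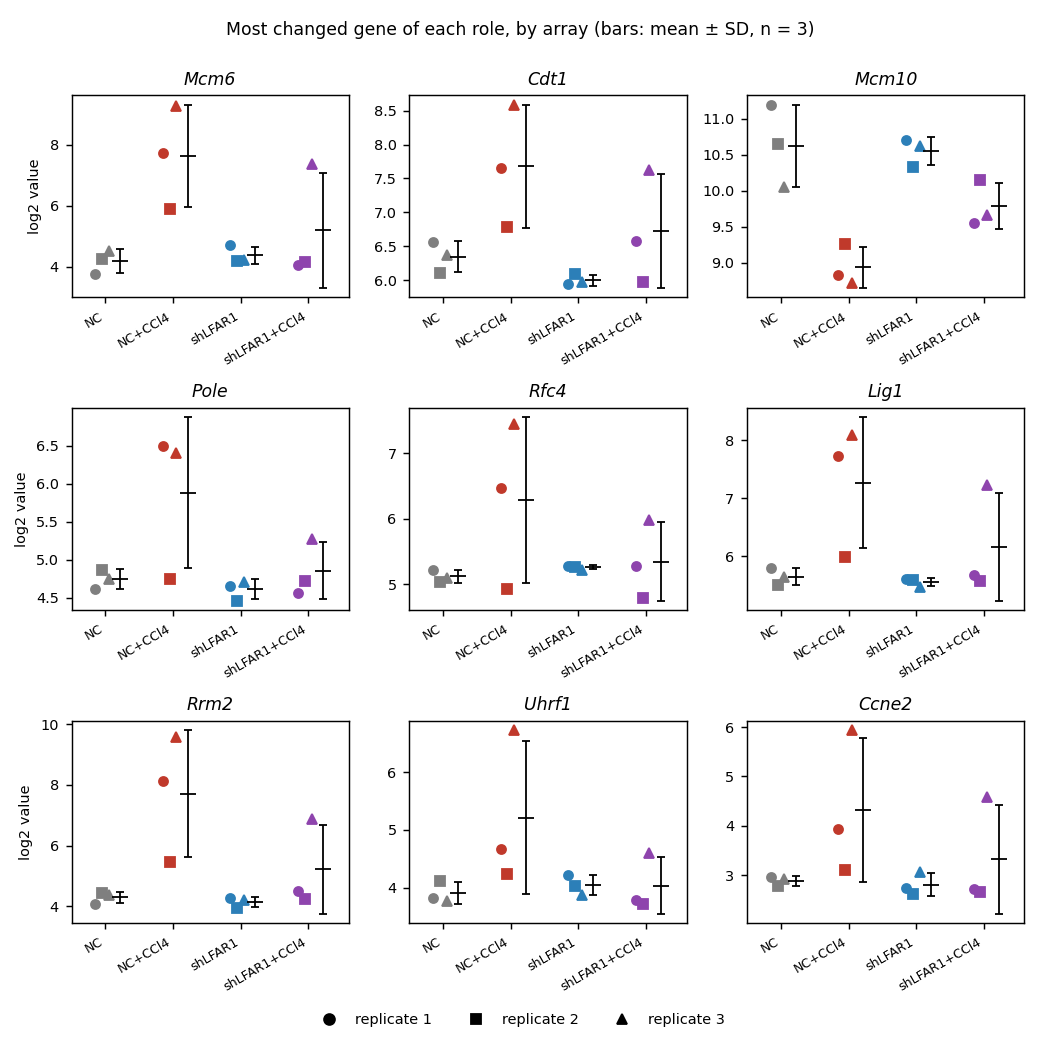
Log2 value by array for the replication gene with the largest absolute log2 change of each role in NC+CCl4 against NC, with the group on the x axis, 1 symbol per replicate number, and bars for the mean ± SD of 3 arrays. In NC+CCl4 the second replicate is the lowest for every gene except Mcm10, where it is the highest, and the third shLFAR1+CCl4 array is the highest of its group for every gene except Mcm10.

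The replicates of the CCl4 groups were spread widely in these genes. The median SD of the 44 genes was 0.134 in NC and 0.123 in shLFAR1, close to the 0.131 and 0.106 of all genes, whereas NC+CCl4 had 0.697 and shLFAR1+CCl4 had 0.381, against 0.172 and 0.143 over all genes. NC+CCl4 replicate 3 was the highest of its group for 33 of the 44 genes and replicate 2 the lowest for 39, where these arrays held that place for 26.2% and 30.4% of all genes. In shLFAR1+CCl4, replicate 3 was the highest for 36 of the 44, against 32.6% of all genes. Counted against all 6 oil arrays together, 39, 18 and 38 replication genes were above them in NC+CCl4 replicates 1, 2 and 3, and 8, 1 and 33 in shLFAR1+CCl4 replicates 1, 2 and 3. The corresponding shares of all genes were 28.7%, 20.2% and 22.2%, and 16.7%, 15.1% and 22%.

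The array that stood apart was also apart by its other genes. On the first principal component of all genes shLFAR1+CCl4 replicate 3 was at 39.2, among the NC+CCl4 arrays at 34.8 to 48.8, while replicates 1 and 2 were at -6.80 and -9.66. NC+CCl4 replicate 1 had the largest differences between 3′ and 5′ control probe sets, a sign of RNA quality, at 1.31 log2 units for beta-actin and 0.72 for Gapdh, where the other 11 arrays had 0.70 to 1.07 and -0.21 to 0.03. The part of these differences in the results was not tested.

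With the knockdown virus, no replication gene passed the test between shLFAR1+CCl4 and NC+CCl4, a comparison in which 0.291% of all genes were called by limma. The direction was downward for 42 of the 44, with a median log2 change of -0.59 beside 0.01 over all genes. At an unadjusted p under 0.05, 21 were lower and 1 higher, where 7.74% of all genes were lower and 6.44% higher. The largest differences were in Rrm2 (-2.50 ± 0.84), Mcm5 (-2.49 ± 0.81) and Mcm6 (-2.44 ± 0.85), with adjusted p of 0.20, 0.18 and 0.21 by limma. The arrays of both groups overlapped for all but 2 of the genes. Gins2, at 7.01, 5.03 and 6.13 in NC+CCl4 and 4.61, 4.53 and 4.98 in shLFAR1+CCl4, lay wholly lower, as did 5.11% of all genes, and had the smallest adjusted p (0.11, limma), and Mcm10 lay wholly higher, as did 7.2% of all genes.

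This comparison turned on which arrays were in it. Without NC+CCl4 replicate 2, 14 replication genes were called lower and none higher, with 2.13% of all genes called lower and a median log2 change of -0.86. Those genes were Rrm1, Rpa2, Lig1, Rfc2, Prim1, Dut, Rfc4, Gins2, Mcm5, Rpa1, Mcm7, Rrm2, Pole and Rfc5. Without shLFAR1+CCl4 replicate 3, 10 were called lower, namely Rrm1, Mcm6, Lig1, Dnmt1, Cdt1, Gins2, E2f1, Mcm5, Rpa1 and Rrm2, with 4.90% of all genes called lower. Leaving out any 1 of the other 10 arrays left the count at 0. The comparison shares the NC+CCl4 arrays with NC+CCl4 against NC, so a high NC+CCl4 array raises the change in the one and lowers it in the other.

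In shLFAR1+CCl4 against shLFAR1, which shares no array with NC+CCl4 against NC, no replication gene was called, and 0.407% of all genes were. At an unadjusted p under 0.05 none was higher and 3 were lower (Mcm10, Pold2 and Fen1), where 5.62% of all genes were higher and 5.15% lower. The log2 change was above 0 for 34 of the 44, with a median of 0.12. Side by side with NC+CCl4 against NC, the log2 change was 0.83 ± 0.85 and 3.46 ± 0.85 for Mcm6, 0.46 ± 0.81 and 3.29 ± 0.81 for Mcm5, 1.07 ± 0.84 and 3.41 ± 0.84 for Rrm2, and -0.76 ± 0.25 and -1.69 ± 0.25 for Mcm10. The difference between these responses was itself tested. It was called for none of the 44 genes, and for 0.022% of all genes. Its median over the 44 was -0.59 and its smallest adjusted p 0.43 in limma. At an unadjusted p under 0.05, 8 of the 44 were lower and 1 higher, and 9.51% of all genes passed in either direction. Of the 12 genes that rose in NC+CCl4, shLFAR1+CCl4 replicate 3 was above all 6 oil arrays for 12, shLFAR1+CCl4 replicate 1 for 3 and shLFAR1+CCl4 replicate 2 for 0. These 12 were picked from the same data for standing above NC, and the NC arrays are among the oil arrays. Their counts are therefore not a like comparison with the 22%, 16.7% and 15.1% of all genes. Over all 44 genes the counts in these arrays were 33, 8 and 1.

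**Figure D3:**
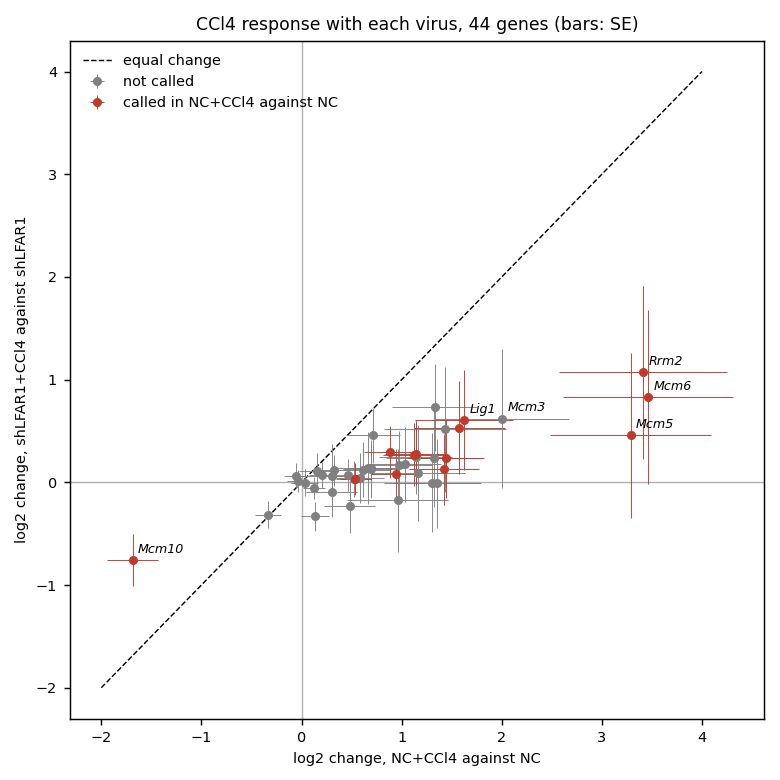
Log2 change of 44 replication genes in NC+CCl4 against NC (x axis) and in shLFAR1+CCl4 against shLFAR1 (y axis), which share no array, with SE bars, the line of equal change, and red for genes called in NC+CCl4 against NC. Mcm5, Mcm6 and Rrm2 lie far to the right at 3.29 to 3.46 and below the line, and Mcm10 lies at the lower left.

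In oil-treated livers the limma test detected no difference between the viruses in these genes, although small differences could be missed. None was called between shLFAR1 and NC (0% of all genes), and the median log2 change of the 44 was 0.04. At an unadjusted p under 0.05 it was 1 of the 44, Pold2 at 0.38 ± 0.14, beside 2.77% of all genes in either direction. The wide spread of the CCl4 arrays entered the pooled errors of this comparison. Rpa1, for one, changed by 0.23 ± 0.24, while its SD was 0.03 among the NC arrays and 0.05 among the shLFAR1 arrays. The shLFAR1 arrays lay wholly above the NC arrays for 4 genes (Mcm2, Pold2, Rfc4 and Rpa1) and wholly below for 1 (Cdt1). Of all 18193 genes, 1094 lay wholly above and 866 wholly below.

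Other genes of the cell cycle were taken from lists by function. Of 46 further replication and S phase genes 44 were measured, and 4 of them rose and none fell in NC+CCl4 against NC. That count was near the share of all genes, of which 7.66% were called higher and 5.41% lower. Ccna2, the cyclin of S phase and G2, changed by 3.54 ± 0.63, Dck, deoxycytidine kinase, by 1.89 ± 0.36, and Dbf4, the activator of the Cdc7 kinase, by 1.51 ± 0.49 without passing. E2f2 and Asf1b were the other 2 that rose, and Mcm9 had the smallest absolute change (-0.02 ± 0.18). The median log2 change of these 44 was 0.35. Among 16 G1 regulators 5 rose, with Ccnd1, cyclin D1, at 3.39 ± 0.66, Cdkn1a, the inhibitor p21, at 2.96 ± 0.56, and Cdkn2c, the Cdk4 and Cdk6 inhibitor p18, at 2.45 ± 0.22, and Myc had the smallest absolute change (-0.01 ± 0.32). Cdkn2c was also called in shLFAR1+CCl4 against shLFAR1, at 1.66 ± 0.22. Of 19 mitosis genes measured 17 rose, among them Birc5 (4.30 ± 1.00), Mki67 (4.25 ± 0.81) and Ccnb2 (3.71 ± 0.83), with a median of 2.60, and Tpx2 had the smallest absolute change (-0.18 ± 0.16). None of these lists had a call in shLFAR1+CCl4 against NC+CCl4, where 0.291% of all genes were called. In the order given, 13, 6 and 18 of their genes were lower at an unadjusted p under 0.05, beside 7.74% of all genes.

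Set out by array, the median of the 44 replication genes minus the NC mean was 0.81, 0.12 and 1.39 in NC+CCl4 replicates 1, 2 and 3 and -0.02, -0.07 and 0.55 in shLFAR1+CCl4. The mitosis median was 3.84, 1.01 and 3.01, and -0.06, -0.02 and 1.31, in the same arrays. Both lists were therefore lowest in NC+CCl4 replicate 2, and the mitosis genes were highest in replicate 1, the replication genes in replicate 3. Stellate cell and macrophage markers had another order in NC+CCl4 but the same order as the replication genes in shLFAR1+CCl4, where replicate 3 was the highest for both marker lists too, and their part in the result was not tested. The 8 stellate cell and myofibroblast markers stood at 2.03, 2.01 and 1.95 in NC+CCl4 and 0.74, 0.72 and 1.77 in shLFAR1+CCl4, and 6 of the 8 rose in NC+CCl4. The 8 macrophage markers stood at 1.01, 1.79 and 0.85 and at 0.33, 0.31 and 0.93, and 4 of the 8 rose. The mean log2 value of the 8 hepatocyte markers stayed between 13.37 and 13.49 in all 12 arrays, as the bright markers of the labelled tissue. Of the remaining lists, 1 of 7 lymphocyte, 2 of 5 neutrophil and 1 of 6 erythroid markers rose, and none of 5 cholangiocyte and 6 endothelial markers did. Of all genes 7.66% were called higher, so a single call in so short a list was not read as a rise of that list. Among the 6 erythroid markers 4 had a log2 change below 0, and 2 were lower at an unadjusted p under 0.05. Which cells held the replication transcripts was not tested.

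**Figure D4:**
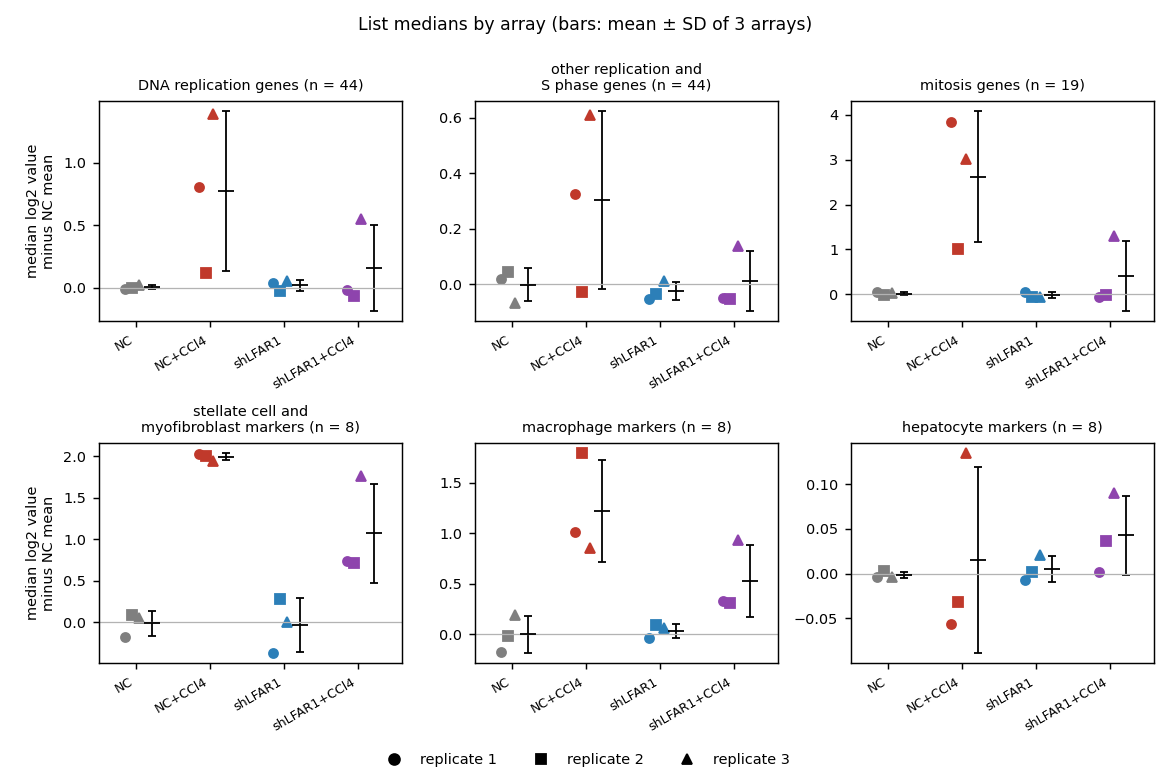
Median log2 value of 6 gene lists minus the NC mean in each array (y axis, scale set per panel), by group, with bars for the mean ± SD of 3 arrays. NC+CCl4 replicate 2 (square) is low for replication and mitosis genes but at 2.01 and 1.79 for stellate cell and macrophage markers.

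Most of these genes have more than 1 probe set, and the probe sets did not always move together. The 44 genes had 97 probe sets, with more than 1 for 34 genes. When all 34945 probe sets with a single symbol were tested, a step chosen after seeing the data, 19 of the 97 rose and 2 fell, where 5.95% and 4.48% of all probe sets did, and 14 genes had a probe set that rose. For 3 genes, Fen1, Uhrf1 and Pold1, only a probe set other than the one used here was called. Some genes that rose also had probe sets that were not called. In NC+CCl4 against NC the second Rpa2 set had 0.465 ± 0.39, and the other Rfc2 sets had 0.40 ± 0.24 and 0.39 ± 0.23. A second Chaf1b set had -0.37 ± 0.12, with its NC+CCl4 arrays below its NC arrays, and was not called either. The second Fen1 probe set read 4.93, 4.75 and 4.56 in NC, 6.88, 5.08 and 7.47 in NC+CCl4, 4.86, 4.81 and 4.76 in shLFAR1 and 4.78, 4.43 and 5.81 in shLFAR1+CCl4. All 3 NC+CCl4 arrays of this set lay above its NC arrays, whereas those of the brighter set lay below. Of the 3 probe sets of Mcm10, the one used fell by 1.69 on the log2 scale in NC+CCl4, a dimmer one that the annotation pairs with the same transcript record fell by 1.23, and the dimmest was near 3 in every array with a log2 change of 0.01.

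**Figure D5:**
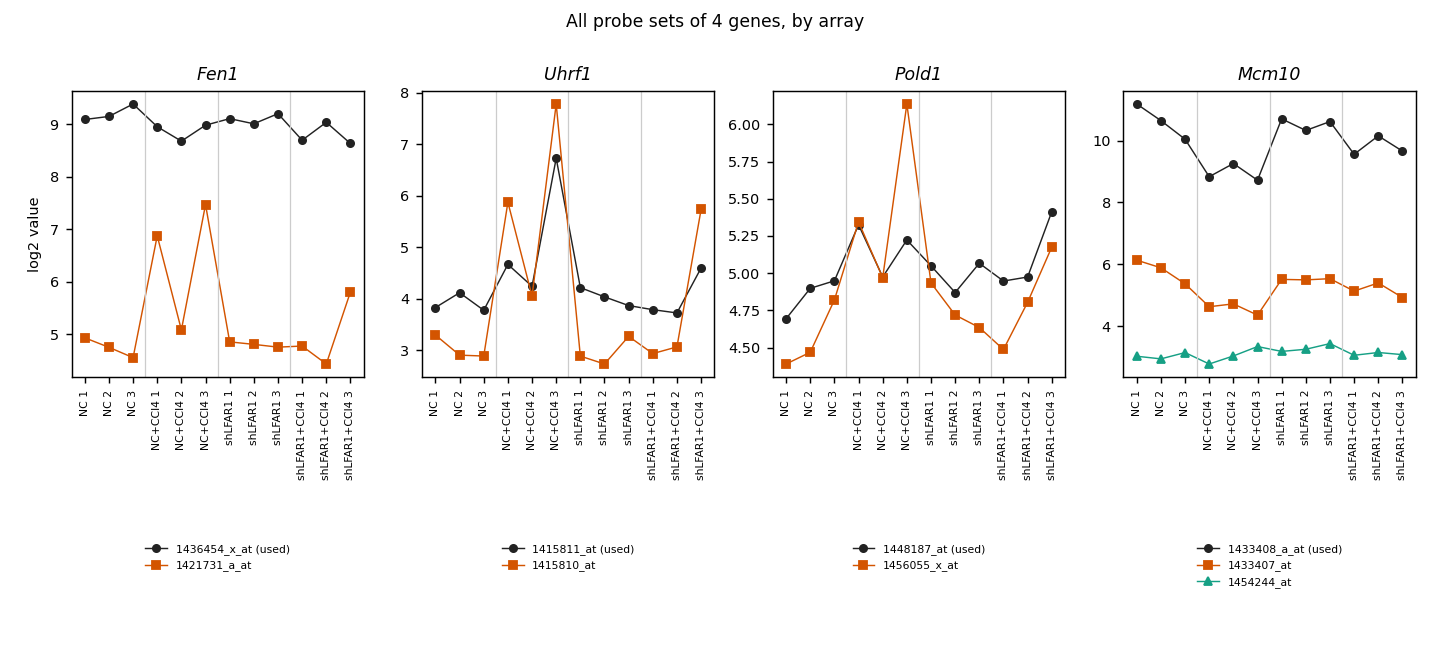
Log2 value by array (x axis, group and replicate number) for each probe set of Fen1, Uhrf1, Pold1 and Mcm10, with the probe set used for the gene in black. Fen1 is flat or lower on the set used and peaks at 6.88 and 7.47 in NC+CCl4 on the other, and Mcm10 falls on 2 of its 3 sets.

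The promoter motifs were also counted in the genes that rose. Of the 12 called higher 9 had a promoter at hand, and 2 of these, or 22.2%, held an 8-base E2F motif, beside 9 of the other 27 replication genes, or 33.3%. Only the first listed promoter of each gene was read. Lig1 and Dnmt1, which rose and had no such motif there, had 3 listed promoters each.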

How the data were processed

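Total RNA of 12 liver samples in 4 groups of 3 was measured. The values the authors deposited are log2 intensities from 1.81 to 14.52, and the authors summarized and normalized them by a method not given in the sources used here. No detection calls came with them, and low values can be background, which understates a fold change. The number of arrays limits the precision.

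Of 45101 probe sets, 64 were controls, and the platform annotation gave 34958 a single symbol, 932 several and 9211 none. Only single-symbol probe sets were used, the brightest per gene over all arrays. limma 3.58.1 in R 4.3.3 fitted the 4 group means over 12 arrays (8 residual degrees of freedom, eBayes with intensity trend), two-sided, with Benjamini-Hochberg adjustment over 18193 genes. Errors of log2 changes are its standard errors. The fit was tested on simulated data with independent normal noise and, for each gene, the same SD in every group. That test does not cover the unequal spread of the groups seen here. The replication genes, the other lists and the marker lists were chosen with earlier results of these data known. Values by array are given for the most and the least changed gene of each role. Of the other lists the 3 most changed and the least changed gene are named, and E2f2, Asf1b and the genes called when an array was left out were named after their values were seen.

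Deviations from the group means of arrays with the same replicate number correlated at 0.126, 0.229 and 0.192 between NC+CCl4 and shLFAR1+CCl4, while unlike numbers gave -0.234 to 0.093. Like numbers gave 0.15, -0.133 and 0.066 between NC and NC+CCl4. They gave 0.087, -0.015 and 0.034 between shLFAR1 and shLFAR1+CCl4, and 0.041, -0.049 and -0.135 between NC and shLFAR1. The labels call the samples biological replicates and do not pair them. Deviations within a group cancel out, so these correlations depend on each other and do not settle whether arrays are paired. The fit behind the reported results did not use the replicate number in any comparison. As an alternative it was fitted as a block over all 4 groups. No replication gene was then called between shLFAR1+CCl4 and NC+CCl4 either, and Gins2 had an adjusted p of 0.088 (limma with the block). Alternatives were the mean of probe sets, quantile normalization, no trend, only the groups compared, array weights, the replicate block, a level filter, the methods' fold and p threshold with their t-test, and leaving out each array.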

Additional observations from a re-analysis of the deposited data

Results flagged for a closer look

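A signal stood in probe sets that the comparisons did not use. In NC+CCl4 against NC the second probe set of Fen1 rose by a log2 change of 1.73 (limma over all probe sets, adjusted p = 0.038), where the probe set used had -0.34. The second probe set of Uhrf1 rose by 2.88 (limma, adjusted p = 0.039), where the one used had 1.31. The second probe set of Pold1 rose by 0.92 (limma, adjusted p = 0.039), where the one used had 0.33. Each of these changes was higher in 3 of 3 NC+CCl4 arrays than in any NC array. With 3 arrays per group, single arrays were not screened as outliers.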

How the results depend on the processing

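No change of a called gene turned its direction. In NC+CCl4 against NC the 13 calls among replication genes became 8 with the mean of all probe sets, 21 with array weights, 20 with the replicate block, 6 with only the groups compared, 6 at the methods' threshold (fold over 1.6 and unadjusted p under 0.05) and 0 with the methods' t-test after Benjamini-Hochberg, and 1 to 32 when 1 array was left out. Mcm10 kept its call in 20 of 21 alternatives, Mcm5 in 16 of 21, Mcm6 in 16 of 20 and Lig1 in 6 of 21. In shLFAR1+CCl4 against NC+CCl4 the 0 calls became 6 with array weights, 1 at the methods' threshold and 0 to 14 with 1 array left out. In shLFAR1+CCl4 against shLFAR1 they became 1 at the methods' threshold, and 0 to 0 with 1 array left out. For the difference between the responses they became 1 with array weights and 0 to 4 with 1 array left out, and the methods' t-test could not be run for it. For shLFAR1 against NC they stayed at 0 with each array left out.

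The 4 calls of the other replication genes became 7 with quantile normalization, 12 with array weights, 8 with the block, 7 among genes above the median level, 0 with the methods' t-test after adjustment and 4 to 20 with 1 array left out, and against NC+CCl4 the 0 became 1 with the mean of probe sets, the block or the methods' threshold, 5 with array weights and 0 to 12 with 1 array left out. The G1 regulators went from 5 to 1 with the methods' t-test after adjustment, from 0 to 6 with array weights against NC+CCl4 (0 to 6 with 1 array left out), and from 1 in shLFAR1+CCl4 against shLFAR1 to 2 with array weights and 0 with only the groups compared or the methods' t-test after adjustment. The mitosis genes went from 17 to 2 among genes above the median level, where fewer of them were tested, 11 at the methods' threshold, 0 with the t-test after adjustment and 12 to 18 with 1 array left out, and against NC+CCl4 from 0 to 16 with array weights and 0 to 17 with 1 array left out. With the E2F core in place of the 8-base motifs the share of promoters was 69.4% in place of 30.6%. Otherwise the cause of these moves was not tested. The block changed no other count of calls past 1.5 times.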
